A study of Homo sapiens with 16 samples.

Results

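The genes of cholesterol and fatty acid synthesis described here are 34 genes in 3 arms. The sterol arm has 20 members, the fatty acid arm 9, and 5 are regulators of the sterol regulatory element-binding proteins (SREBPs). A gene was represented by the probe set named for it alone, so 31 members, each with 1 such probe set, were measured among 22395 genes. All 31 were bright enough to be among the 15676 genes tested: 18 of the sterol arm, 8 of the fatty acid arm and the 5 regulators. FDFT1, CYP51A1 and FADS1 had no probe set of their own and were not analysed with the others.

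Levels were measured on Affymetrix whole-transcript arrays in total RNA of DLD1 and HCT116, established human colon cancer cell lines. From each line came a derivative whose wild-type PIK3CA allele was knocked out (Mut) and one whose mutant allele was knocked out (WT). PIK3CA encodes the catalytic p110-alpha subunit of phosphoinositide 3-kinase. The 4 derivatives were kept without or with glutamine for 24 h, all of them in DMEM with 10% dialyzed fetal bovine serum. The 8 groups were thus DLD1 Mut, DLD1 WT, HCT116 Mut and HCT116 WT cells, each without and with glutamine and each on 2 arrays of biological replicates. All 4 derivatives carry a knocked-out allele, and each genotype of a line is 1 derivative, so genotype and derivative cannot be told apart.

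Cells make cholesterol from acetyl-CoA by way of mevalonate and squalene, and fatty acids from the same acetyl-CoA by carboxylation, chain synthesis, elongation and desaturation. SREBPs are transcription factors held in the endoplasmic reticulum by SCAP and the INSIG proteins when sterols are plentiful. When sterols run low, SCAP escorts SREBPs to the Golgi, where proteases free the part that enters the nucleus and activates genes of both arms. The protein from SREBF2 acts mainly on sterol genes and the forms from SREBF1 more on fatty acid genes. Proliferating tumour cells use both products for membranes.

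The medians of the 16 arrays lay between 3.57 and 3.70 intensity units, and over genes, which are no independent observations, the 2 arrays of a group had a Pearson r of 0.989 to 0.992. All 8 epithelial markers were bright enough to test, led by EPCAM, although the microvillus gene VIL1 averaged 4.43. Of 5 fibroblast, 5 leukocyte and 3 endothelial markers only COL1A1, at a mean of 7.85, and CD68, at 85.5, were tested. The other markers of these cells were near background, among them PTPRC, with a mean of 1.91. CD68 gave most of the leukocyte sum, which averaged 184 without and 84.6 with glutamine in HCT116 Mut cells and 221 and 117 in HCT116 WT cells. Its part in the results was not tested. PIK3CA had no probe set of its own and was not analysed here.

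Glutamine withdrawal lowered most of the sterol arm in each of the 4 derivatives, and in the fatty acid arm 4 of 8 measured members fell in all 4. A member was called where limma, fitted to all tested genes over the 16 arrays, gave a Benjamini-Hochberg adjusted p under 0.05, and changes are log2 differences without minus with glutamine ± SE. Averaged over the derivatives, 24 of 31 members fell and 4 rose, while 23.5% of all tested genes were called lower and 24.3% higher. The sterol arm had 16 members lower and 2 higher of 18 (median -0.89), the fatty acid arm 5 lower and 1 higher of 8 (median -0.64), and the regulators 3 lower and 1 higher of 5 (median -0.28). The median over all tested genes was -0.0042. In RNA of whole cultures, fewer cells of a kind and less RNA per cell cannot be told apart.

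By derivative, 20 members fell and 0 rose in DLD1 Mut cells, where 16.8% of genes were called in each direction. In DLD1 WT cells 22 fell and 0 rose, with 13.0% of genes lower and 14.0% higher. In HCT116 Mut cells 18 fell and 5 rose, with 16.5% of genes lower and 16.4% higher. In HCT116 WT cells 20 fell and 1 rose, with 10.1% lower and 10.3% higher. In all 4 derivatives 17 of the 31 members were called lower, 11 of the sterol arm, 4 of the fatty acid arm and 2 regulators, and 0 were called higher. Of all tested genes 3.67% were lower and 3.54% higher in all 4. The 17 were ACAT2, HMGCS1, MVD, IDI1, SQLE, LSS, MSMO1, NSDHL, EBP, DHCR7, STARD4, ACLY, ACACA, FASN, SCD, INSIG1 and SREBF2. Levels below are the deposited linear intensities of both arrays of a group, and levels of different probe sets are not compared. Arrays without and with glutamine also lay apart in members that were not called, and the share of all genes where they did was not computed. Statements that arrays did or did not overlap are therefore descriptions, not tests.

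**Figure D1:**
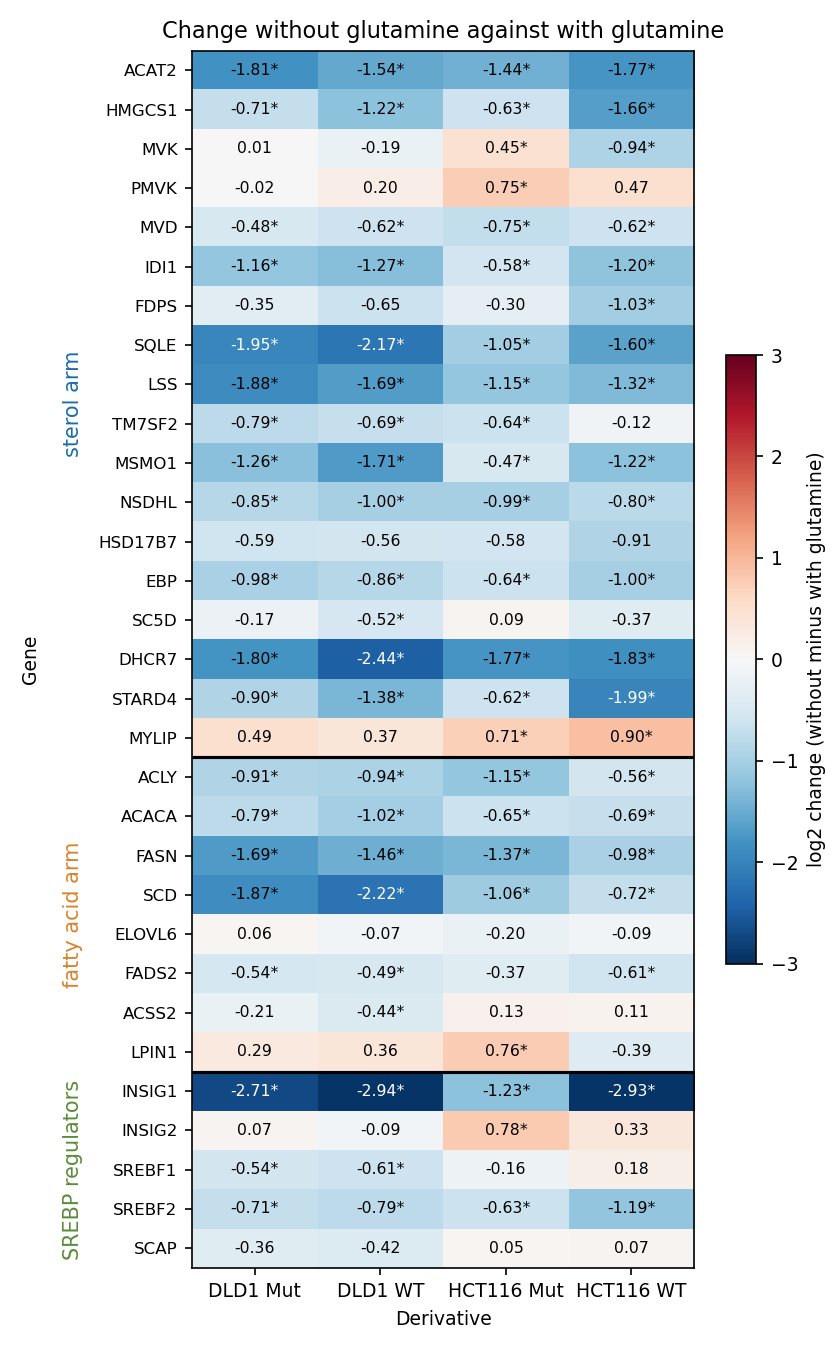
Log2 change on glutamine withdrawal (colour scale) of the 31 tested members (rows, by arm) in DLD1 Mut, DLD1 WT, HCT116 Mut and HCT116 WT cells (columns), from 2 against 2 arrays each. Most sterol and fatty acid rows are negative throughout, INSIG1 reaches -2.94 in DLD1 WT cells, and MYLIP, PMVK, INSIG2 and LPIN1 hold most of the positive values.

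The genomic sequence before the transcription start of 8 members is shown because these genes moved together or against their arm. Averaged over the derivatives, INSIG1, SREBF2, LSS, MSMO1, STARD4 and SCD fell, and PMVK and MYLIP rose. By derivative, the rise of PMVK was called only in HCT116 Mut cells and that of MYLIP only in HCT116 Mut and WT cells. These 8 were chosen after their values were seen. Each stretch is the 200 bases before the start, given 5′ to 3′ on the strand of the gene, from RefSeq promoter windows of GRCh38.p14. Capitals mark a sterol regulatory element, searched as TCACNCCAC, and the box bound by the factor NF-Y, searched as CCAAT, both on either strand (CCAAT reads ATTGG on the other).

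INSIG1 promoter, chr7:155297678-155297877, plus strand: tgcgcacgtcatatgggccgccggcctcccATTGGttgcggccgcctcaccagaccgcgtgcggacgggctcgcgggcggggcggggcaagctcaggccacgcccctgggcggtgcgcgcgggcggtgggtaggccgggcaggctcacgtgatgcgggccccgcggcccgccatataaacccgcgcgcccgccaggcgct

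SREBF2 promoter, chr22:41832905-41833104, plus strand: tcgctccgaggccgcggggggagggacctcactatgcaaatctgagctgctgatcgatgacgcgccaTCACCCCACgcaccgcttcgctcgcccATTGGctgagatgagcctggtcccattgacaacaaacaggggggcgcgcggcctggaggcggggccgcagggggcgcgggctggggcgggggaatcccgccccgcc

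LSS promoter, chr21:46228775-46228974, minus strand: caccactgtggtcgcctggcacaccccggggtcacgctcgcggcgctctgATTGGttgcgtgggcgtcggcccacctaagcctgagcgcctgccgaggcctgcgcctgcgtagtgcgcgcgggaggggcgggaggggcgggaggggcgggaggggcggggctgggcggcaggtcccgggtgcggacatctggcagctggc

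MSMO1 promoter, chr4:165327469-165327668, plus strand: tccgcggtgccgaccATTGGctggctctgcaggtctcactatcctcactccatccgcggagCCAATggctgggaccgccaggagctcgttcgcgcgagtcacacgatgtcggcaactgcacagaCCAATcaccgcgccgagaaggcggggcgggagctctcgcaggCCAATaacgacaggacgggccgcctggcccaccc

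STARD4 promoter, chr5:111512536-111512735, minus strand: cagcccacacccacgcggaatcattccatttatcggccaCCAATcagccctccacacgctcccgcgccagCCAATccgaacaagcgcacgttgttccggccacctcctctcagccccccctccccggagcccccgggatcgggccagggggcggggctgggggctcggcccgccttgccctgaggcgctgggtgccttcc

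SCD promoter, chr10:100347033-100347232, plus strand: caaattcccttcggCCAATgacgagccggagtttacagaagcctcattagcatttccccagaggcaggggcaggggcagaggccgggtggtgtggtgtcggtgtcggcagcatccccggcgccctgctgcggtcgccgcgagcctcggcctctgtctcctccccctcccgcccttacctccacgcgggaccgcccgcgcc

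PMVK promoter, chr1:154936720-154936919, minus strand: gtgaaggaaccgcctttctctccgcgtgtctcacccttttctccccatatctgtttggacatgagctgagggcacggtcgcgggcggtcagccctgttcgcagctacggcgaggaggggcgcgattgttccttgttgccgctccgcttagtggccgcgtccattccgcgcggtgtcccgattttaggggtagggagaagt

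MYLIP promoter, chr6:16128886-16129085, plus strand: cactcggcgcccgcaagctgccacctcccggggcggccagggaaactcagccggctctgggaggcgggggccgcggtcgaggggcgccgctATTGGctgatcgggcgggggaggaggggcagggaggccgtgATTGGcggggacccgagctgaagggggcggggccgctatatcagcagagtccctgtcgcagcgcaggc

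A CCAAT box lay in 7 of these 8 stretches, 4 times in that of MSMO1 and 0 times in that of PMVK, and TCACNCCAC lay in 1, that of SREBF2. None of the CCAAT boxes overlapped a TCACNCCAC or a GGGCGG. The promoter table matched 30 of the 34 members, and ACAT2, FASN, SQLE and FDFT1 were not matched. Over windows of 250 bases before to 50 after each start, CCAAT was found in 22 of 30 members (73.3%), against 41.7% of 11735 tested genes with a window. By arm it was in 15 of 17 sterol genes (88.2%), 5 of 8 fatty acid genes (62.5%) and 2 of 5 regulators. GGGCGG, the letters bound by SP1, was in 29 of 30 members (96.7%), against 72.6% of the tested genes. TCACNCCAC was in 1 of 30 members, against 1.41%, and the E-box CACGTG in 4 of 30 (13.3%), against 11.9%. These matches are letters in a window, not measured binding, and windows of 1 gene share sequence. Only the exact letters TCACNCCAC were searched. A sterol regulatory element spelled otherwise, or lying outside the window, was not counted, so a promoter without a match may still hold one.

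In the mevalonate part of the sterol arm, which makes the isoprenoid units, 6 of 7 genes fell and 1 rose on average (median -0.61). ACAT2 makes acetoacetyl-CoA, the first condensation. ACAT2 intensities were 127 and 114 without glutamine against 417 and 428 with it in DLD1 Mut cells, and 142 and 128 against 404 and 378 in DLD1 WT cells. ACAT2 stood at 52.5 and 59.5 without glutamine against 165 and 140.5 with it in HCT116 Mut cells, and 71.4 and 61.5 against 246 and 207 in HCT116 WT cells. All arrays without glutamine lay below all arrays with it in each derivative, and DLD1 cells were higher than HCT116 cells in either medium. The fall was 3.12-fold on average (-1.64 ± 0.06, adjusted p = 2.25e-08).

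HMGCS1, the HMG-CoA synthase, had 282 and 302 without glutamine against 478 and 473 with it in DLD1 Mut cells, and 179 and 193 against 377 and 497 in DLD1 WT cells. In the other line HMGCS1 had 96.9 and 115 without glutamine against 165 and 161 with it in HCT116 Mut cells, and 97.1 and 108 against 327 and 321 in HCT116 WT cells. Every derivative was lower without glutamine, DLD1 Mut cells kept the highest level there, and HCT116 Mut cells had the lowest level with it. HMGCS1 fell 2.08-fold on average (-1.05 ± 0.07, adjusted p = 4.3e-07), by 1.63-fold in DLD1 Mut and 3.16-fold in HCT116 WT cells. IDI1, the isopentenyl diphosphate isomerase, was measured at 27.6 and 34.8 without glutamine against 71.8 and 66.6 with it in DLD1 Mut cells, and 38.5 and 40.96 against 100.4 and 91.6 in DLD1 WT cells. For IDI1 the HCT116 arrays read 32.6 and 44.6 without glutamine against 61.1 and 52.9 with it in HCT116 Mut cells, and 34.1 and 32.5 against 76.9 and 75.9 in HCT116 WT cells. The groups did not overlap in any derivative and were nearest in HCT116 Mut cells. IDI1 fell 2.07-fold on average (-1.05 ± 0.08, adjusted p = 1.2e-06).

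MVD, the decarboxylase that yields isopentenyl diphosphate, showed 98.6 and 109 without glutamine against 146 and 142 with it in DLD1 Mut cells, and 86.5 and 68.5 against 118 and 118 in DLD1 WT cells. MVD in the second line showed 96.9 and 108 without glutamine against 179 and 165 with it in HCT116 Mut cells, and 141 and 164 against 239 and 228 in HCT116 WT cells. It was lower without glutamine everywhere and highest in HCT116 WT cells with glutamine. MVD fell 1.53-fold on average (-0.61 ± 0.06, adjusted p = 1.29e-05). FDPS, the farnesyl diphosphate synthase, changed by -0.58 ± 0.14 on average (adjusted p = 0.00552) and was called by derivative only in HCT116 WT cells (-1.03 ± 0.28), a call lost in 4 of 26 alternatives. Processed copies of FDPS elsewhere in the genome make its value uncertain. In DLD1 Mut cells MVD was not called without replicate 1 of either medium (adjusted p up to 0.0898), and IDI1 was not called in HCT116 Mut cells without replicate 1 of either medium (adjusted p up to 0.130).

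PMVK, the phosphomevalonate kinase, had 85.4 and 97.5 without glutamine against 84.4 and 101 with it in DLD1 Mut cells, and 98.1 and 88.4 against 86.9 and 75.96 in DLD1 WT cells. PMVK had 162 and 139 without glutamine against 79.6 and 100.3 with it in HCT116 Mut cells, and 158 and 139 against 99.8 and 114 in HCT116 WT cells. The DLD1 Mut arrays of both media overlapped, while the HCT116 arrays without glutamine were all above those with it. PMVK rose on average (0.35 ± 0.08, adjusted p = 0.00312) and, by derivative, in HCT116 Mut cells (0.75 ± 0.15), with a value of 0.47 ± 0.15 in HCT116 WT cells that was not called (adjusted p = 0.054).

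MVK, the mevalonate kinase, gave 53.98 and 57.4 without glutamine against 52.9 and 57.6 with it in DLD1 Mut cells, and 44.2 and 48.6 against 56.5 and 49.7 in DLD1 WT cells. MVK gave 42.8 and 44.1 without glutamine against 34.7 and 29.2 with it in HCT116 Mut cells, and 25.98 and 28.2 against 48.3 and 55.6 in HCT116 WT cells. Its direction differed by derivative: HCT116 Mut cells gave a rise (0.45 ± 0.12, adjusted p = 0.0142), HCT116 WT cells a fall (-0.94 ± 0.12, adjusted p = 0.000377), and DLD1 cells uncalled values of 0.012 ± 0.12 in the Mut and -0.19 ± 0.12 in the WT derivative. The rise in HCT116 Mut cells was lost without replicate 2 of either medium (adjusted p up to 0.114). The average of MVK (-0.17 ± 0.06) was not called in 15 of 25 alternatives.

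From squalene to cholesterol, all 9 measured genes fell on average (median -0.91). SQLE, the squalene epoxidase, had 145 and 154 without glutamine against 569.9 and 583 with it in DLD1 Mut cells, and 128 and 138 against 547 and 658 in DLD1 WT cells. The HCT116 arrays of SQLE had 211 and 185 without glutamine against 411 and 406 with it in HCT116 Mut cells, and 246 and 228 against 693 and 743 in HCT116 WT cells. The arrays without glutamine were lowest in DLD1, and with glutamine HCT116 Mut cells were lowest. SQLE fell 3.86-fold in DLD1 Mut, 4.51-fold in DLD1 WT, 2.07-fold in HCT116 Mut and 3.03-fold in HCT116 WT cells (average -1.69 ± 0.05, adjusted p = 8.15e-09).

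DHCR7, a reductase at the end of the pathway, read 149 and 136 without glutamine against 487 and 499 with it in DLD1 Mut cells, and 97.8 and 97.8 against 518 and 547 in DLD1 WT cells. DHCR7 in HCT116 read 96.7 and 99.2 without glutamine against 361 and 308 with it in HCT116 Mut cells, and 137 and 140.3 against 482 and 508 in HCT116 WT cells. Each derivative was far lower without glutamine than with it, and DLD1 WT cells had the widest gap. The average change of -1.96 ± 0.05 (adjusted p = 3.15e-09) was the largest of the sterol arm. LSS, which closes squalene epoxide into lanosterol, lay at 37.96 and 36.3 without glutamine against 127 and 146 with it in DLD1 Mut cells, and 46.4 and 44.98 against 153 and 141 in DLD1 WT cells. LSS lay at 31.4 and 37.03 without glutamine against 83.3 and 68.98 with it in HCT116 Mut cells, and 45.6 and 37.5 against 111 and 95.9 in HCT116 WT cells. With glutamine DLD1 cells were highest and HCT116 Mut cells lowest, and without it all derivatives were close together. LSS fell 2.85-fold on average (-1.51 ± 0.07, adjusted p = 6.16e-08).

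MSMO1, which oxidises methyl groups of lanosterol-derived sterols, had 259 and 255 without glutamine against 589.6 and 648 with it in DLD1 Mut cells, and 231 and 239 against 687 and 857 in DLD1 WT cells. In HCT116 MSMO1 had 227 and 231 without glutamine against 333 and 303 with it in HCT116 Mut cells, and 286 and 250.4 against 599.9 and 651 in HCT116 WT cells. Without glutamine all derivatives were close together, whereas with it HCT116 Mut cells lay well below the others. MSMO1 fell by 3.27-fold in DLD1 WT and by 1.39-fold in HCT116 Mut cells, and the second call was lost without replicate 1 of either medium (adjusted p up to 0.0733). NSDHL (-0.91 ± 0.06) and EBP (-0.87 ± 0.05), a dehydrogenase and an isomerase of the same stretch, fell in all 4 derivatives. TM7SF2, a sterol reductase, fell on average (-0.56 ± 0.06) and in 3 derivatives, with a value of -0.12 ± 0.12 in HCT116 WT cells that was not called. SC5D, a sterol desaturase (-0.24 ± 0.08), and HSD17B7, a ketosteroid reductase (-0.66 ± 0.24), fell on average, but were not called in 7 of 25 and 15 of 24 alternatives. HSD17B7 was dim, between 3.12 and 15.5 on the arrays, and has a near-identical pseudogene, so its value is uncertain.

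Of the members that move sterols, STARD4, a soluble sterol carrier, was at 69.7 and 85.6 without glutamine against 127 and 164 with it in DLD1 Mut cells, and 79.1 and 71.4 against 199.9 and 190.3 in DLD1 WT cells. STARD4 was at 61.5 and 63.6 without glutamine against 115 and 80.03 with it in HCT116 Mut cells, and 50.5 and 44.2 against 203 and 173 in HCT116 WT cells. The media did not overlap in any derivative, and the gap was widest in HCT116 WT and narrowest in HCT116 Mut cells. STARD4 fell 3.97-fold in HCT116 WT and 1.53-fold in HCT116 Mut cells (average -1.22 ± 0.09, adjusted p = 1.43e-06). Its call in HCT116 Mut cells was lost with HCT116 fitted alone, without replicate 1 with glutamine and without either replicate lacking it (adjusted p up to 0.204).

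MYLIP, an E3 ubiquitin ligase that marks lipoprotein receptors for degradation and is induced when sterols are abundant, went the other way. MYLIP had 128 and 137 without glutamine against 83.4 and 107 with it in DLD1 Mut cells, and 133 and 111 against 93.2 and 95.1 in DLD1 WT cells. The HCT116 arrays of MYLIP had 48.7 and 63.2 without glutamine against 39.5 and 29.3 with it in HCT116 Mut cells, and 75.6 and 69.1 against 41.2 and 36.3 in HCT116 WT cells. Without glutamine it was higher in every derivative with no overlap, and DLD1 was above HCT116. MYLIP rose 1.53-fold on average (0.62 ± 0.09, adjusted p = 0.000191), in HCT116 Mut (0.71 ± 0.18) and WT cells (0.90 ± 0.18), and was not called in DLD1 Mut (0.49 ± 0.18, adjusted p = 0.0612) or WT cells (0.37 ± 0.18, adjusted p = 0.166). The call in HCT116 Mut cells was lost without replicate 2 of either medium (adjusted p up to 0.103).

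In the fatty acid arm ACLY, ACACA, FASN and SCD fell in all 4 derivatives. ACLY, which cleaves citrate into acetyl-CoA, had 572 and 529.8 without glutamine against 1054 and 1018 with it in DLD1 Mut cells, and 522 and 493 against 941 and 1007 in DLD1 WT cells. ACLY in HCT116 had 454 and 424 without glutamine against 1018 and 930.0 with it in HCT116 Mut cells, and 719 and 757 against 1108 and 1069.8 in HCT116 WT cells. With glutamine all derivatives were close, and without it HCT116 Mut cells were lowest and HCT116 WT cells highest. ACLY fell 1.85-fold on average (-0.89 ± 0.05, adjusted p = 9.65e-08). ACACA, the acetyl-CoA carboxylase, was at 123 and 132 without glutamine against 245 and 198 with it in DLD1 Mut cells, and 117 and 121 against 224 and 259.5 in DLD1 WT cells. For ACACA the values in HCT116 were 204 and 215 without glutamine against 321 and 338 with it in HCT116 Mut cells, and 230.1 and 225 against 364 and 367 in HCT116 WT cells. The media did not overlap in any derivative, and HCT116 was above DLD1 in both. ACACA fell 1.73-fold on average (-0.79 ± 0.06, adjusted p = 9.71e-07).

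FASN, the fatty acid synthase, read 79.5 and 79.4 without glutamine against 266 and 248 with it in DLD1 Mut cells, and 83.99 and 83.6 against 219.7 and 243 in DLD1 WT cells. FASN read 145 and 163 without glutamine against 394 and 402 with it in HCT116 Mut cells, and 229 and 259 against 484 and 473 in HCT116 WT cells. The DLD1 arrays without glutamine were nearly equal across genotypes, and HCT116 WT cells were highest in either medium. FASN fell 3.23-fold in DLD1 Mut, 2.76-fold in DLD1 WT, 2.59-fold in HCT116 Mut and 1.97-fold in HCT116 WT cells (average -1.38 ± 0.05, adjusted p = 1.17e-08). SCD, the stearoyl-CoA desaturase, which makes oleate, had 318 and 314 without glutamine against 1107 and 1209.8 with it in DLD1 Mut cells, and 258 and 246 against 1099 and 1243 in DLD1 WT cells. SCD arrays of HCT116 had 889 and 774 without glutamine against 1751 and 1713 with it in HCT116 Mut cells, and 1403 and 1343 against 2254 and 2276 in HCT116 WT cells. HCT116 WT cells without glutamine were still above DLD1 cells with it, and DLD1 cells without glutamine were lowest. SCD fell 3.66-fold in DLD1 Mut and 4.65-fold in DLD1 WT, but 2.09-fold in HCT116 Mut and 1.65-fold in HCT116 WT cells.

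**Figure D2:**
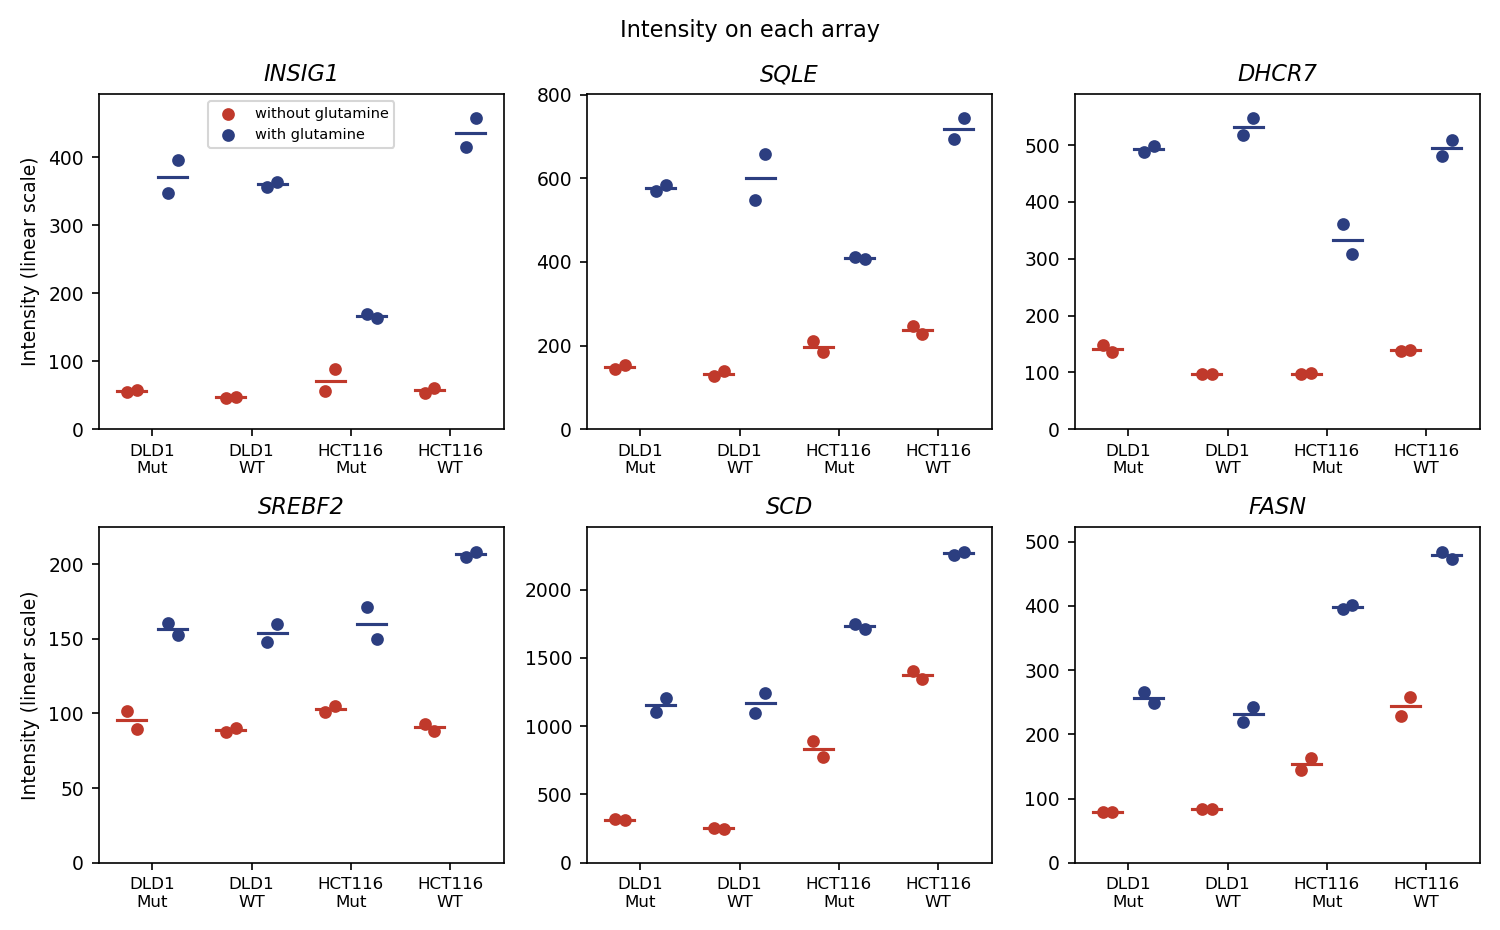
Intensity (linear scale from 0) of INSIG1, SQLE, DHCR7, SREBF2, SCD and FASN on each array, without (red) and with glutamine (blue), in 4 derivatives. Bars are geometric means of 2 arrays. In every panel the arrays without glutamine lie below those with it in the same derivative, and with glutamine INSIG1 and SQLE are lowest in HCT116 Mut cells.

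The remaining members of the fatty acid arm had smaller changes or none that was called. FADS2, which desaturates polyunsaturated precursors, had 9.35 and 9.67 without glutamine against 13.7 and 13.9 with it in DLD1 Mut cells, and 11.9 and 13.6 against 16.3 and 19.4 in DLD1 WT cells. FADS2 had 19.9 and 27.04 without glutamine against 29.6 and 30.5 with it in HCT116 Mut cells, and 11.8 and 13.4 against 17.96 and 20.5 in HCT116 WT cells. It was highest in HCT116 Mut cells in both media and lower without glutamine in each derivative. FADS2 fell on average (-0.50 ± 0.07, adjusted p = 0.00022) and in 3 derivatives, and each of these 3 calls was lost without at least 2 of the derivative's own arrays (adjusted p up to 0.0826 for DLD1 Mut, 0.196 for DLD1 WT and 0.106 for HCT116 WT cells).

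LPIN1, a phosphatidate phosphatase and transcriptional coregulator, was at 59.9 and 64.2 without glutamine against 46.2 and 56.1 with it in DLD1 Mut cells, and 45.3 and 50.99 against 30.6 and 45.7 in DLD1 WT cells. LPIN1 was at 47.4 and 48.97 without glutamine against 30.5 and 26.7 with it in HCT116 Mut cells, and 36.7 and 30.3 against 43.5 and 44.1 in HCT116 WT cells. It was higher without glutamine in both Mut derivatives and lower without it in HCT116 WT cells, while the DLD1 WT arrays overlapped. LPIN1 rose in HCT116 Mut cells (0.76 ± 0.18, adjusted p = 0.00772, 0.0557 without replicate 2 with glutamine). Its average rise (0.25 ± 0.09) was not called in 12 of 25 alternatives. ELOVL6, a fatty acid elongase (-0.073 ± 0.05, adjusted p = 0.259), and ACSS2, which makes acetyl-CoA from acetate (-0.10 ± 0.07, adjusted p = 0.252), were not called on average, and ELOVL6 was not called in any derivative. ACSS2 fell in DLD1 WT cells (-0.44 ± 0.14), a call lost in 7 of 26 alternatives.

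The regulators split. INSIG1, which retains SREBPs in the endoplasmic reticulum and is itself an SREBP target, had 55.4 and 58.2 without glutamine against 347 and 395 with it in DLD1 Mut cells, and 45.6 and 47.99 against 356 and 364 in DLD1 WT cells. INSIG1 in the other line had 56.6 and 88.3 without glutamine against 169 and 163 with it in HCT116 Mut cells, and 53.7 and 60.5 against 414 and 457 in HCT116 WT cells. Levels without glutamine were low in every derivative, and with it HCT116 Mut cells lay below the other derivatives. INSIG1 fell 6.52-fold in DLD1 Mut, 7.69-fold in DLD1 WT, 2.35-fold in HCT116 Mut and 7.63-fold in HCT116 WT cells (average -2.45 ± 0.09, adjusted p = 1.12e-08), the largest average change of any member.

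SREBF2 was measured at 102 and 89.6 without glutamine against 160.4 and 152 with it in DLD1 Mut cells, and 87.9 and 90.5 against 148 and 160.0 in DLD1 WT cells. SREBF2 was measured at 101 and 105 without glutamine against 171 and 149.6 with it in HCT116 Mut cells, and 93.2 and 88.1 against 205 and 208 in HCT116 WT cells. All derivatives were lower without glutamine and near one another there, and HCT116 WT cells were highest with it. SREBF2 fell 1.78-fold on average (-0.83 ± 0.05, adjusted p = 2.91e-07). SREBF1 had 39.9 and 36.6 without glutamine against 60.3 and 51.3 with it in DLD1 Mut cells, and 33.9 and 31.95 against 47.9 and 52.7 in DLD1 WT cells. SREBF1 had 71.03 and 81.9 without glutamine against 76.1 and 94.8 with it in HCT116 Mut cells, and 90.5 and 90.6 against 77.9 and 81.9 in HCT116 WT cells. DLD1 cells were lower without glutamine. HCT116 cells were above DLD1 cells in both media, with overlapping arrays in Mut and higher ones without glutamine in WT cells. SREBF1 fell in DLD1 Mut (-0.54 ± 0.13) and WT cells (-0.61 ± 0.13) and was not called in HCT116 Mut (-0.16 ± 0.13) or WT cells (0.18 ± 0.13). In DLD1 Mut cells this call was lost without replicate 1 with glutamine or replicate 2 without it (adjusted p up to 0.0711).

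INSIG2, the paralogue of INSIG1, stood at 113 and 126 without glutamine against 106 and 122 with it in DLD1 Mut cells, and 126 and 111 against 122 and 130.0 in DLD1 WT cells. INSIG2 stood at 147 and 136 without glutamine against 90.3 and 74.5 with it in HCT116 Mut cells, and 128 and 113 against 102 and 89.9 in HCT116 WT cells. The DLD1 arrays of both media overlapped, and both HCT116 derivatives were higher without glutamine. INSIG2 rose on average (0.28 ± 0.07) and in HCT116 Mut cells (0.78 ± 0.13, adjusted p = 0.001), with 0.33 ± 0.13 in HCT116 WT cells not called. SCAP read 86.6 and 89.9 without glutamine against 109 and 118 with it in DLD1 Mut cells, and 85.7 and 90.5 against 111 and 125 in DLD1 WT cells. SCAP read 98.7 and 110.3 without glutamine against 85.5 and 118 with it in HCT116 Mut cells, and 114 and 113 against 112 and 104 in HCT116 WT cells. It was lower without glutamine in both DLD1 derivatives, overlapped in HCT116 Mut cells and was slightly higher without it in HCT116 WT cells. SCAP was not called in any derivative or on average (-0.16 ± 0.07, adjusted p = 0.0807), and came nearest in DLD1 WT cells (-0.42 ± 0.14, adjusted p = 0.0504).

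Set side by side, the sterol arm had medians of -0.82, -0.93, -0.62 and -1.01 in DLD1 Mut, DLD1 WT, HCT116 Mut and HCT116 WT cells, with 12, 13, 12 and 13 of 18 genes lower. The fatty acid arm had -0.66, -0.71, -0.51 and -0.59 in the same order, with 5, 6, 4 and 5 of 8 lower. The regulators had -0.54, -0.61, -0.16 and 0.073, with 3, 3, 2 and 2 of 5 lower. The 5 members that rose in HCT116 Mut cells were MVK, PMVK, MYLIP, INSIG2 and LPIN1.

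**Figure D3:**
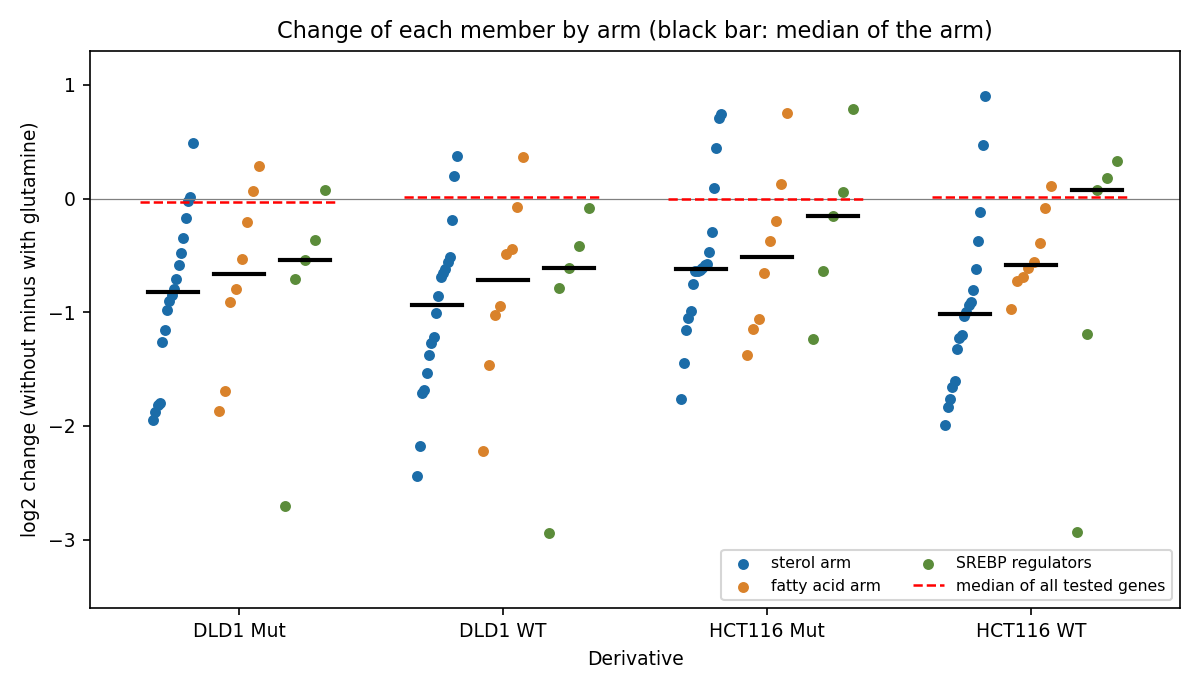
Log2 change on glutamine withdrawal of each member (points) by arm in the 4 derivatives, with the median of each arm as a black bar. The sterol medians lie at -0.82, -0.93, -0.62 and -1.01 from left to right, and the lowest point in each derivative except HCT116 Mut is INSIG1.

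Withdrawal was then compared between the lines, each averaged over its Mut and WT derivatives. Of 31 members 12 had a more negative change in DLD1 than in HCT116 and 0 a more positive one, while 8.93% and 10.0% of all genes did. SCD differed most (-1.15 ± 0.10, adjusted p = 8.13e-05), followed by SQLE (-0.74 ± 0.11, adjusted p = 0.00131) and INSIG1 (-0.74 ± 0.17, adjusted p = 0.0131). In SCD, SQLE, LSS (-0.55 ± 0.14), FASN (-0.40 ± 0.10) and MSMO1 (-0.64 ± 0.12) all derivatives fell, both DLD1 derivatives further than both HCT116 derivatives. The nearest values were close in MSMO1, with -1.26 in DLD1 Mut against -1.22 in HCT116 WT cells. They were also close in FASN, with -1.46 in DLD1 WT against -1.37 in HCT116 Mut cells. For INSIG1 the difference of the averages came with the smaller fall in HCT116 Mut cells (-1.23), since HCT116 WT cells (-2.93) fell as far as DLD1 Mut (-2.71) and DLD1 WT cells (-2.94). For DHCR7 (-0.32 ± 0.10) the larger fall was in DLD1 WT cells (-2.44), while DLD1 Mut (-1.80), HCT116 Mut (-1.77) and HCT116 WT cells (-1.83) were close. In 10 of the 12 members the change was more negative in both DLD1 derivatives than in both HCT116 derivatives, and INSIG1 and DHCR7 are the 2 exceptions. The share of all genes called lower here that lay apart in this way was not computed, so this count describes the members only. For SREBF1 (-0.59 ± 0.13, adjusted p = 0.0101) DLD1 fell and HCT116 was not called. For INSIG2 (-0.57 ± 0.13, adjusted p = 0.0133) and PMVK (-0.52 ± 0.15) the called rise was in HCT116 Mut cells. In HCT116 WT cells INSIG2 (0.33) and PMVK (0.47) were also higher without glutamine but were not called. SCAP (-0.45 ± 0.14) and ACSS2 (-0.45 ± 0.14) complete the 12. The medians of this difference were -0.15 in the sterol arm, -0.15 in the fatty acid arm and -0.57 among the regulators. Without replicate 2 of DLD1 Mut cells with glutamine 7 members were called, and SCAP, DHCR7, ACSS2 and PMVK were not called in 18, 17, 17 and 12 of 25 alternatives.

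With glutamine present, the averages of the lines also differed, and the arms differed in opposite directions. Here 15 members were higher and 8 lower in DLD1 than in HCT116, against 24.5% and 22.5% of all genes. Of the sterol arm 13 of 18 were higher and 1, MVD (-0.62 ± 0.09), was lower (median 0.43), whereas in the fatty acid arm 0 were higher and 5 of 8 lower (median -0.60). MYLIP (1.38 ± 0.13), ACAT2 (1.13 ± 0.09), SC5D (1.00 ± 0.11) and HMGCS1 (0.98 ± 0.09) were the sterol genes furthest above HCT116. FASN (-0.84 ± 0.07), SCD (-0.77 ± 0.07), ELOVL6 (-0.69 ± 0.07), FADS2 (-0.62 ± 0.11) and ACACA (-0.59 ± 0.08) were lower in DLD1. Of the regulators INSIG1 (0.44 ± 0.12) and INSIG2 (0.43 ± 0.09) were higher and SREBF1 (-0.64 ± 0.09) and SREBF2 (-0.23 ± 0.07) lower in DLD1. By group means, the 8 lower members were lower in both DLD1 derivatives than in both HCT116 derivatives. Arrays overlapped, however, for SREBF2 between both DLD1 derivatives (mean log2 level 7.29 in Mut and 7.26 in WT cells) and HCT116 Mut cells (7.32). For FADS2 they overlapped between DLD1 WT (4.15) and HCT116 WT cells (4.26). Of the 15 higher members, 11 were higher by group means in both DLD1 derivatives than in both HCT116 derivatives. Such counts were not made over all called genes, so those of the lower and the higher members have no background share. In the other 4, INSIG1, IDI1, MSMO1 and DHCR7, only HCT116 Mut cells lay below both DLD1 derivatives. For INSIG1 the log2 level was 8.53 and 8.49 in DLD1 Mut and WT cells, against 7.38 in HCT116 Mut and 8.77 in HCT116 WT cells, so the WT derivatives ran the other way. MVK in HCT116 WT cells (5.69) was also close to DLD1 Mut (5.79) and WT cells (5.73), with overlapping arrays, whereas HCT116 Mut cells were lower (4.99). This comparison shares its arrays with those of withdrawal. IDI1 (0.30 ± 0.11) and SREBF2 were not called in 14 and 5 of 25 alternatives.

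**Figure D4:**
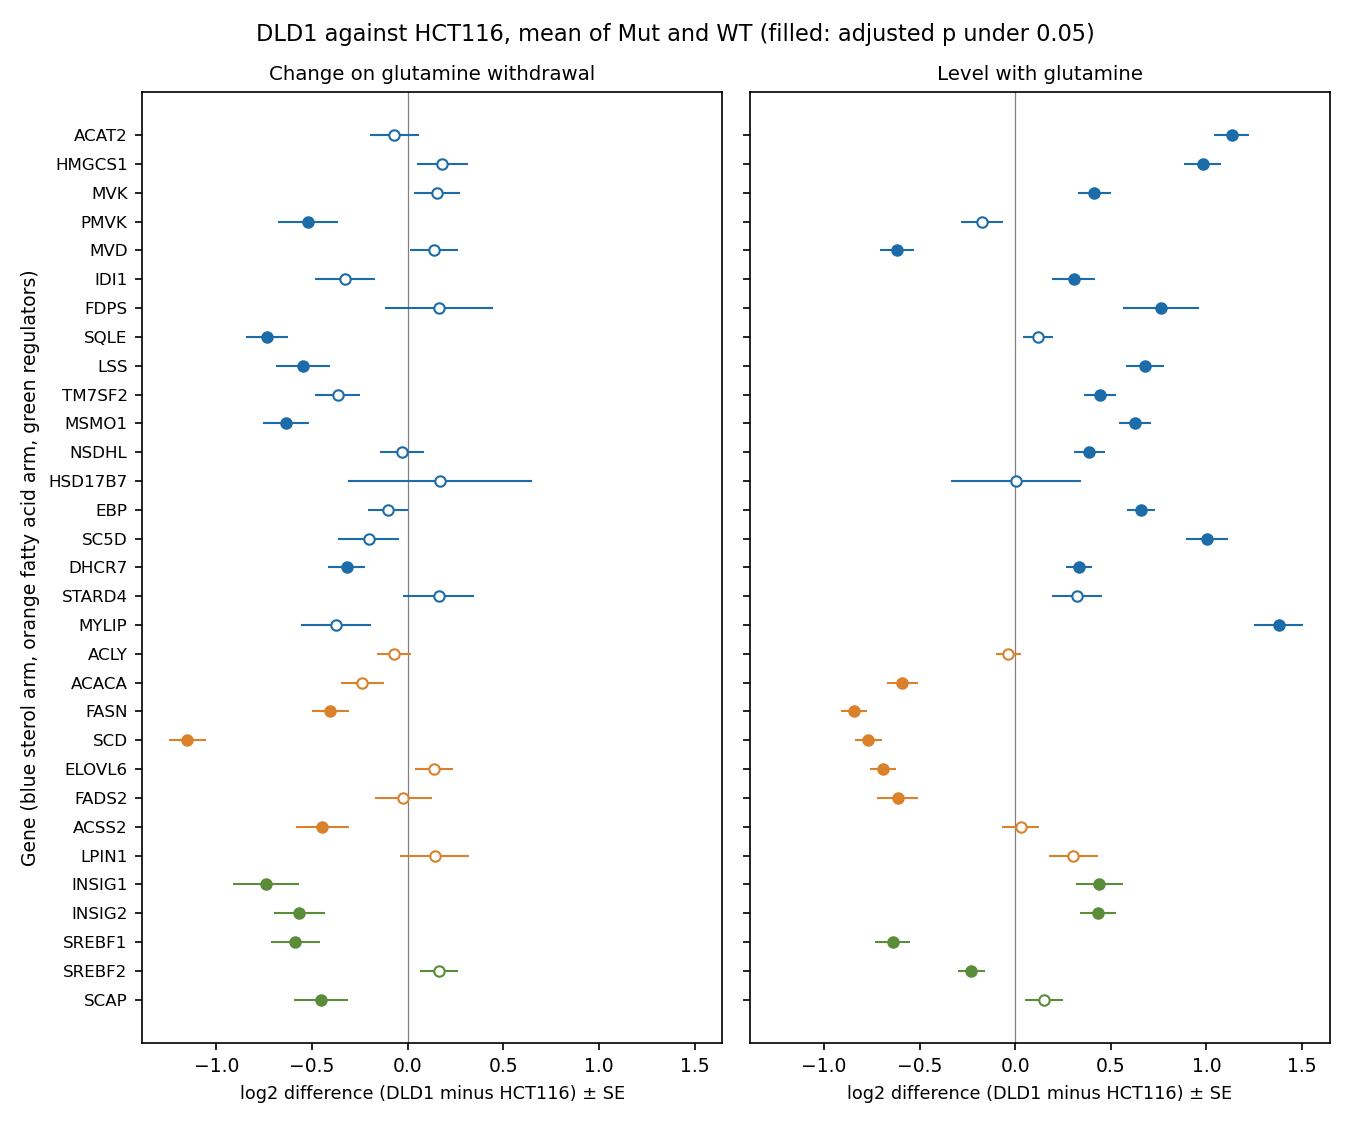
DLD1 minus HCT116 for each tested member, mean of Mut and WT, with SE bars: left, difference in the log2 change on glutamine withdrawal; right, log2 difference in level with glutamine. Filled points were called; SCD at -1.15 is the most negative on the left, and on the right most sterol genes (blue) lie above 0 and 5 filled fatty acid genes (orange) below it.

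The Mut and WT derivatives were compared within each line. In HCT116 cells with glutamine 11 of 31 members were lower and 1 higher in Mut than in WT cells, where 2.12% of all genes were lower and 1.12% higher. Of the 11 lower members 9 belonged to the sterol arm (median -0.53), 1 to the fatty acid arm and 1 to the regulators. INSIG1 was at 169 and 163 in Mut and 414 and 457 in WT cells, 2.62-fold lower (-1.39 ± 0.17, adjusted p = 0.00183). HMGCS1 was 1.98-fold lower (adjusted p = 0.00333), MSMO1 1.97-fold (adjusted p = 0.00175), STARD4 1.96-fold (adjusted p = 0.0186) and SQLE 1.76-fold (adjusted p = 0.00333). The arrays of these genes did not overlap, but neither did those of uncalled members such as MVD and SCD. The share of all genes without overlap was not computed. MVK (-0.70 ± 0.12), EBP (-0.62 ± 0.10), ACAT2 (-0.57 ± 0.13), DHCR7 (-0.57 ± 0.10), ELOVL6 (-0.51 ± 0.10) and TM7SF2 (-0.50 ± 0.12) were also lower, and FADS2 (0.65 ± 0.15) was higher.

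These calls depended on the fit: with HCT116 fitted alone 3 members were called, and INSIG1 was not (adjusted p up to 0.0561 over its 26 alternatives). Without Mut replicate 2, WT replicate 1 or WT replicate 2 with glutamine 4, 6 and 4 members were called. TM7SF2, ACAT2 and FADS2 were not called in 21, 18 and 17 of 26 alternatives.

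In HCT116 cells without glutamine, 8 members were lower and 2 higher in Mut than in WT cells, against 12.4% and 12.3% of all genes. Here 4 of 8 fatty acid genes were lower, ACLY (-0.75 ± 0.09), SCD (-0.73 ± 0.10), FASN (-0.66 ± 0.10) and ELOVL6 (-0.62 ± 0.10), and 4 of 18 sterol genes, TM7SF2 (-1.02 ± 0.12), MVD (-0.57 ± 0.13), DHCR7 (-0.50 ± 0.10) and NSDHL (-0.46 ± 0.12). FADS2 (0.88 ± 0.15, adjusted p = 0.00175) and MVK (0.68 ± 0.12, adjusted p = 0.00215) were higher in Mut cells. HMGCS1 (0.042 ± 0.13), MSMO1 (-0.22 ± 0.12), SQLE (-0.26 ± 0.11) and INSIG1 (0.31 ± 0.17) were not called in this medium. The calls of MVD and NSDHL were lost without Mut replicate 1 or WT replicate 2 lacking glutamine (adjusted p up to 0.0589 and 0.0950).

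**Figure D5:**
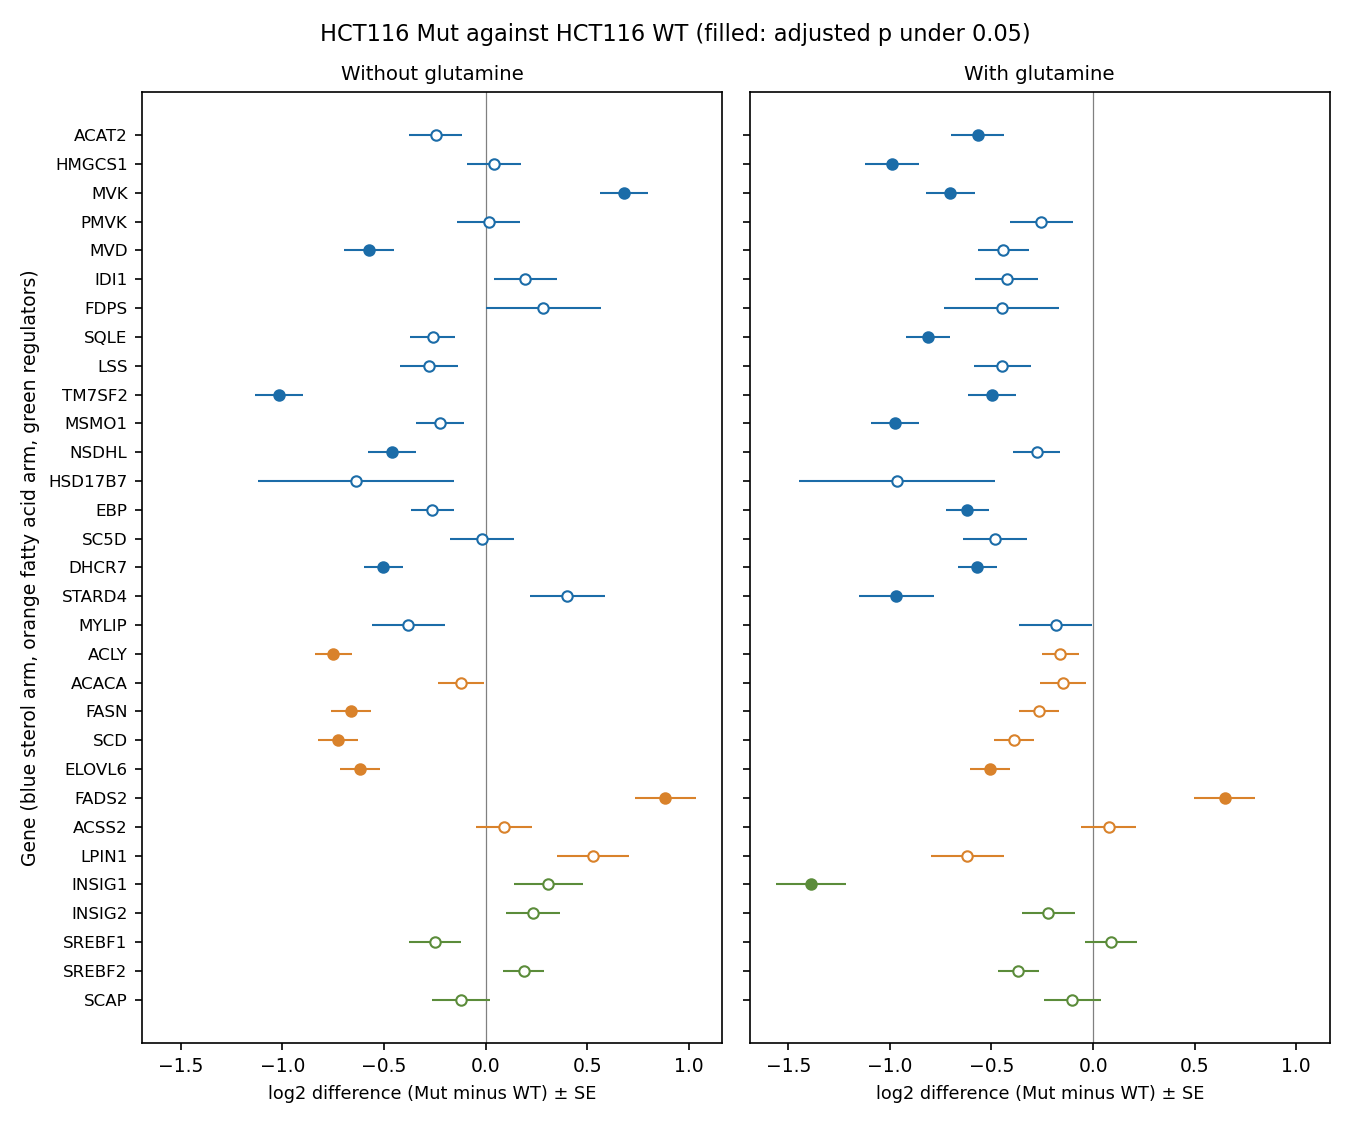
Log2 difference between HCT116 Mut and HCT116 WT cells for each tested member, without glutamine (left) and with it (right), with SE bars; filled points were called. With glutamine INSIG1 lies at -1.39 and most sterol genes (blue) are below 0, and without it ACLY, SCD, FASN and ELOVL6 (orange) are below 0 and FADS2 is above it.

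Whether the withdrawal response differed between the HCT116 derivatives was tested as an interaction, the change in Mut minus that in WT cells. In HCT116 7 members had a more positive value in Mut cells and 1 a more negative one, where 4.75% of all genes did in each direction. INSIG1 fell 2.35-fold in Mut and 7.63-fold in WT cells (interaction 1.70 ± 0.24, adjusted p = 0.00247). MVK, which rose in Mut and fell in WT cells, had an interaction of 1.38 ± 0.17 (adjusted p = 0.0013), and HMGCS1 one of 1.03 ± 0.19 (adjusted p = 0.00842). STARD4 (1.37 ± 0.26), LPIN1 (1.15 ± 0.25), MSMO1 (0.75 ± 0.17) and SREBF2 (0.55 ± 0.14) also had more positive changes in Mut cells, and ACLY (-0.59 ± 0.13) a more negative one. The interaction shares the arrays of the comparisons within each medium, so it is no separate evidence of them. With HCT116 fitted alone 4 members were called, and 4 were called without WT replicate 2 of either medium or Mut replicate 2 lacking glutamine. SREBF2 was not called in 12 of 26 alternatives.

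In DLD1 cells with glutamine limma called 0 of 31 members between Mut and WT cells, with 6 at an unadjusted p under 0.05, while 3.20% of all genes were called lower and 2.60% higher. Without replicate 2 of DLD1 WT cells with glutamine 1 member was called higher. INSIG1 was at 347 and 395 in Mut and 356 and 364 in WT cells, and the arrays overlapped (0.042 ± 0.17). Without glutamine 2 members were higher and 0 lower in DLD1 Mut cells, against 4.36% and 5.91% of all genes. They were HMGCS1, with 282 and 302 in Mut and 179 and 193 in WT cells (0.65 ± 0.13, adjusted p = 0.0117), and DHCR7, with 149 and 136 in Mut and 97.8 and 97.8 in WT cells (0.54 ± 0.10, adjusted p = 0.00546). Only 1 of them was called without replicate 1 or without replicate 2 of DLD1 Mut cells lacking glutamine. For the interaction in DLD1 limma called 0 members, with 4 at an unadjusted p under 0.05, against 0.255% of genes higher and 0.568% lower. The nearest was DHCR7 (0.65 ± 0.13, adjusted p = 0.0546). Whether the interaction itself differed between the lines was not tested.

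Other genes of lipid metabolism were counted by list, again on average over the 4 derivatives and beside the 23.5% of genes called lower and 24.3% higher. Of 12 tested genes of sterol uptake, transport, storage and efflux 4 fell and 3 rose. LRP8, a lipoprotein receptor (-1.83 ± 0.09), TMEM97, a sterol-regulated membrane protein (-1.54 ± 0.05), and SCARB1, the scavenger receptor that takes up lipoprotein cholesterol (-1.13 ± 0.06), fell, and the lysosomal cholesterol transporter NPC1 (0.72 ± 0.06), the oxysterol-binding protein OSBP (0.47 ± 0.05) and the receptor VLDLR (0.66 ± 0.11) rose. Of 18 further genes of fatty acid synthesis, elongation and activation 8 fell and 2 rose, with falls of SLC25A1, the mitochondrial citrate carrier (-1.32 ± 0.06), the desaturase SCD5 (-0.81 ± 0.08) and the dehydratase HACD3 (-0.34 ± 0.05). Among 10 further sterol and isoprenoid enzymes 5 fell and 3 rose. PDSS1, which makes the side chain of coenzyme Q (-1.07 ± 0.07), and LBR, a lamin B receptor with sterol reductase activity (-0.49 ± 0.05), fell, and the prenyltransferase subunits FNTA (0.48 ± 0.04) and PGGT1B (0.40 ± 0.05) rose.

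Of 9 genes of SREBP processing and degradation 4 rose and 1 fell, led by the deubiquitinase USP20 (0.72 ± 0.11), with the protease that frees SREBPs, MBTPS2, at 0.19 ± 0.05. Glycerolipid and phospholipid genes went both ways, with 6 of 15 lower and 5 higher. PCYT2, of phosphatidylethanolamine synthesis (-1.10 ± 0.07), and DGAT1, which completes triglycerides (-0.63 ± 0.06), fell, while choline kinase CHKA (0.99 ± 0.04) and the acyltransferases GPAT3 (0.98 ± 0.06) and AGPAT4 (1.03 ± 0.14) rose. Of 19 fatty acid oxidation genes 4 fell and 3 rose, among them the dehydrogenase HADH (-1.13 ± 0.06) and the lipase inhibitor ANGPTL4 (1.02 ± 0.12). The medians of these 6 lists lay between -0.20 and 0.12, against -0.89 in the sterol arm and -0.64 in the fatty acid arm.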

How the data were processed

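Intensities per probe set were used as deposited: linear values of 16 arrays whose distributions were near equal, and the method by which the authors normalized them is not given in the sources used here. Per the labels' protocols, biotin-labelled targets were made from total RNA with the Affymetrix whole-transcript protocol. Symbols came from the platform annotation, 90 of which were updated through RefSeq (GRCh38.p14). Of 53617 probe sets 23871 had 1 symbol, 1842 had several and 27904 had none. Only those with 1 symbol were used, the brightest per gene.

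The log2 of each intensity was taken with no pseudocount. The brightest 70% of genes by mean log2 intensity entered 13 contrasts in limma (version 3.58.1, R version 4.3.3; lmFit and eBayes with 8 group means and 8 residual degrees of freedom). Benjamini-Hochberg adjustment ran over all 15676 tested genes, and each fold is the antilog of an absolute log2 change. The number of arrays limits the precision. Replicates are biological per the labels, with no source culture named. The p-values weigh differences of group means against the spread between arrays of a group, pooled over the 8 groups and adjusted by eBayes. Whether that spread covers independent cultures is not given.

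Members, lists and tests were chosen with earlier results of these data known. All members could be named; array values were given for the regulators, the 8 sterol and 4 fatty acid genes with the largest average changes, members called against their arm, and the 3 with the smallest adjusted p in each difference contrast. From the other lists, up to 3 called genes per direction were named. Some genes of these lists are not reported here. The alternatives were other filters, quantile normalization, a median shift, a pseudocount of 1, the mean of probe sets, trend and robust eBayes, replicate blocks, each line alone, and leaving out each array. Replicate numbers were not treated as pairs in the main fit. Within each derivative, deviations of the same-numbered arrays of both media correlated at -0.020 to 0.020 over all tested genes. Such correlations between derivatives were not computed, so shared handling across derivatives was not tested by them.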

Additional observations from a re-analysis of the deposited data

Results flagged for a closer look

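The results below are differences between the lines or between the derivatives of HCT116 in the log2 change on glutamine withdrawal, each tested by its own limma contrast. No explanation was tested.

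Between DLD1 and HCT116, each averaged over Mut and WT, the change was more negative in DLD1 for 12 members. Of all tested genes 8.93% were called in this direction. SCAP, DHCR7, ACSS2, PMVK and LSS were not called in 18, 17, 17, 12 and 3 of 25 alternatives. Among the sterol enzymes the difference was -0.74 for SQLE, -0.64 for MSMO1, -0.55 for LSS, -0.52 for PMVK and -0.32 for DHCR7. In the fatty acid arm it was -1.15 for SCD, -0.45 for ACSS2 and -0.40 for FASN. Among the regulators it was -0.74 for INSIG1, -0.59 for SREBF1, -0.57 for INSIG2 and -0.45 for SCAP. The difference for INSIG1 came with the smaller change in HCT116 Mut cells (-1.23), as HCT116 WT cells (-2.93) changed as far as DLD1 Mut (-2.71) and DLD1 WT cells (-2.94). For DHCR7 it came with the larger change in DLD1 WT cells (-2.44), against -1.77 in HCT116 Mut and -1.83 in HCT116 WT cells and beside -1.80 in DLD1 Mut cells. In the other 10 members the change was more negative in both DLD1 derivatives than in both HCT116 derivatives. No such count was made over all genes.

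Between HCT116 Mut and WT cells, the change was more positive in Mut cells by 1.70 for INSIG1, 1.38 for MVK, 1.37 for STARD4, 1.15 for LPIN1, 1.03 for HMGCS1, 0.75 for MSMO1 and 0.55 for SREBF2. It was more negative in Mut cells for ACLY, with a difference of -0.59. Of all tested genes 4.75% were called in each direction. SREBF2, MSMO1, ACLY, LPIN1 and STARD4 were not called in 12, 6, 5, 5 and 1 of 26 alternatives.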

How the results depend on the processing

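Over 13 comparisons 181 calls of single members were made; 137 held under each of their alternatives, 44 were lost under at least 1, and 0 changed sign. The counts on withdrawal stayed within 1.5 times in every alternative, from 17 to 22 in DLD1 Mut, 19 to 23 in DLD1 WT, 20 to 23 in HCT116 Mut and 18 to 22 in HCT116 WT cells with 1 array left out, and from 24 to 27 on average. For Mut against WT with glutamine in HCT116, 12 members were called, 3 with HCT116 fitted alone and 4 to 10 with 1 array left out (4 without Mut replicate 2 or WT replicate 2, 6 without WT replicate 1, all with glutamine). The interaction in HCT116 had 8, 4 with HCT116 fitted alone and 4 to 9 with 1 array left out (4 without WT replicate 2 in either medium or Mut replicate 2 without glutamine). The difference in withdrawal between the lines had 12, and 7 to 11 with 1 array left out (7 without DLD1 Mut replicate 2 with glutamine). Mut against WT without glutamine in DLD1 had 2, 4 with genes above the median level and 4 with trend and robust eBayes, and 1 to 2 with 1 array left out (1 without either Mut replicate lacking glutamine). With glutamine in DLD1 the count was 0, and 0 to 1 with 1 array left out (1 without WT replicate 2 with glutamine). The interaction in DLD1 had 0, and 1 with genes above the median level, with a pseudocount of 1 and with trend and robust eBayes. The labels give replicates only a number. With a replicate block over all arrays 28 members were called on average withdrawal and 11 for Mut against WT with glutamine in HCT116. This block lost 4 of the 181 calls. Blocks within each line lost 11 of 181. The cause of these shifts was not tested, except that leaving out arrays or fitting 1 line alone leaves fewer arrays. Dim genes such as HSD17B7 are limited by their signal over background.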

Other observations

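CYP51A1 and FADS1 share probe sets with neighbouring genes, so these values cannot be assigned to 1 gene. The probe set of CYP51A1, a sterol demethylase, and LRRD1 had a lower log2 level without than with glutamine in each derivative, at 8.55 against 9.34 in DLD1 Mut, 8.61 against 9.43 in DLD1 WT, 8.57 against 8.88 in HCT116 Mut and 8.31 against 9.13 in HCT116 WT cells. That of FADS1, a fatty acid desaturase, and MIR1908 stood at 4.93 against 5.37, 4.78 against 5.27, 7.18 against 7.38 and 7.10 against 7.76 in the same order, lower in DLD1 than in HCT116. A further probe set names FADS3, MIR1908 and FADS1 together. It was lower without glutamine in DLD1 Mut (5.30 against 5.50) and DLD1 WT cells (5.72 against 5.93) and higher in HCT116 Mut (6.21 against 5.81) and HCT116 WT cells (6.32 against 5.99). None of these was tested.

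Among the members, EBP and NSDHL came closest to the median profile of the sterol enzymes over the 8 group means, centred within each line. Their root mean square log2 differences were 0.0531 and 0.111, and both are among the enzymes that make up this median. The next members were outside the sterol arm, SREBF2 (0.134), ACACA (0.145) and ACLY (0.1855), ahead of IDI1 (0.207). The sterol enzymes SQLE (0.452) and DHCR7 (0.568) lay further off. Outside the members the 8 nearest of all tested genes were CHST14, TMEM14A, CHDH, BDH1, CTSV, MIR4635, SLC37A4 and QSOX2, with differences of 0.0863 to 0.134. This likeness is a description over 8 groups.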
